A study of Mus musculus with 2 samples.

Results

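Ribosome biogenesis genes and their regulator Myc were followed in single-cell RNA sequencing of mouse plantaris muscle 4 days after tenotomy, the cutting of a tendon. The set was given as a list of 31 gene symbols, 30 genes that act in making ribosomes plus Myc, and each symbol matched exactly 1 of the 32285 gene identifiers in the count files. In each of 5 male C57BL/6 mice, 12 weeks old, the plantaris of 1 leg had tenotomy and the contralateral plantaris served as sham, so both groups come from the same animals. The sources used here do not say which tendon was severed. The 5 muscles of a group were pooled, digested with collagenase type II and sorted for living mononuclear cells (Calcein AM positive, propidium iodide negative), and each pool gave 1 library. Animals cannot be told apart within a pool, and with 1 library per group treatment and library cannot be told apart either, so there was no test and no p-value. A difference is given as a ratio of tenotomy over sham with an exact 95% interval that covers counting error only, and it was called at 2-fold or more.

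The tenotomy library held 11950 cell barcodes with 94556283 unique molecular identifiers (UMIs, 1 per captured RNA molecule) and the sham library 8463 barcodes with 47781353 UMIs. After filters, 10917 tenotomy cells with a median of 5859 UMIs and 7548 sham cells with a median of 4851 UMIs were kept, and 29 kept barcodes occurred in both libraries. Cells were placed in classes by gates of 10 marker genes each, and the class names below stand for those gates. Classes with at least 50 cells in both libraries were compared: mesenchymal (1621 tenotomy and 1996 sham cells), myogenic (338 tenotomy and 351 sham), endothelial (1504 tenotomy and 3316 sham), monocyte/macrophage (4531 tenotomy and 283 sham), tenocyte (199 tenotomy and 377 sham) and mural (88 tenotomy and 105 sham). Cells were chosen on these markers, so the marker levels describe the gates and test nothing. As an example, mesenchymal markers summed to 4853 and 9797 counts per 1000000 UMIs of the class (CPM) in tenotomy and sham mesenchymal-gated cells, against 51.2 to 344 CPM in the myogenic, endothelial and monocyte/macrophage gates. The limit used for RNA that leaks between droplets was 10% of a member's level over all cells of the library. It was applied only in the library where the member was higher in the class. No member that had at least 25 UMIs lay below it. The lowest was Myc in sham monocyte/macrophage-gated cells, at 10.9%, so the sham side of its ratio there lies near the limit.

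Ribosomes are assembled in the nucleolus. RNA polymerase I transcribes a long precursor of ribosomal RNA, small nucleolar ribonucleoproteins (snoRNPs) modify it at sites that their guide RNAs select, box C/D particles by ribose methylation and box H/ACA particles by pseudouridylation, and processing factors cut and fold it into the small and the large subunit. Myc is a short-lived transcription factor that pairs with Max and is known to raise transcription of genes for RNA polymerase I and for nearly every step after it. In muscle, growth under load and the activation of satellite cells are both known to come with more ribosome production.

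Promoters are shown for 4 members to set the contrast that runs through the values below: Nop58, which was lower in tenotomy, Nop56, its partner in the same particle, and Nop2 and Gar1, which carry letters that motif searches look for. Each is the stretch of 150 bases before the start of the gene, 5′ to 3′ on the strand of the gene, from RefSeq on GRCm38.p6, and capitals mark motif matches. Nop58 lies at chr1:59684821-59684970 on the plus strand, Nop56 at chr2:130274262-130274411 on the plus strand, Nop2 at chr6:125131733-125131882 on the plus strand and Gar1 at chr3:129831397-129831546 on the minus strand.
Nop58: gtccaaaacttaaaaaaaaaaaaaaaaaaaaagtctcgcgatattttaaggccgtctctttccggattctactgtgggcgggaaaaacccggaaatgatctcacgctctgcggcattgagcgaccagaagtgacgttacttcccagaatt
Nop56: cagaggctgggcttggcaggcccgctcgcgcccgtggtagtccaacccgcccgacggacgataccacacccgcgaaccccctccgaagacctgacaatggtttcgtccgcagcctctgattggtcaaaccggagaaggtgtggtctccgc
Nop2: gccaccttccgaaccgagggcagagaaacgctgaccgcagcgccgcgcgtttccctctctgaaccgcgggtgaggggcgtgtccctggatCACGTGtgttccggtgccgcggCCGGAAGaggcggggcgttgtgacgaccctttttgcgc
Gar1: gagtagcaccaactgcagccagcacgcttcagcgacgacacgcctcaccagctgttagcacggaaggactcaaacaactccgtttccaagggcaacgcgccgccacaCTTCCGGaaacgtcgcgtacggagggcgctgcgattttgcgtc

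The searches covered 300 bases per gene, 250 before the start and 50 after it, on both strands, for the 25 members matched in the RefSeq table. CACGTG, the E-box that Myc with Max is known to bind, was present in 4 of 25 windows (16%), those of Mybbp1a, Wdr43, Nop2 and Pes1, against 8.09% of the windows of all 27025 genes. CACGCG, a variant E-box (CGCGTG on the other strand), was present in 9 windows (36.0%) against 10.5% of all. CCGGAAG, a match for the ETS family of factors (CTTCCGG on the other strand, as in Gar1), was present in 6 windows (24.0%) against 9.93% of all. The member windows were also richer in G and C, with a median of 57.3% against 52.7%. The Nop58 and Nop56 stretches printed above hold none of these letters. A match in letters is a description and no evidence of binding.

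Myc itself was lower in tenotomy in the mesenchymal, myogenic and monocyte/macrophage gates and higher in the endothelial gate. It stood at 89.9 CPM in tenotomy mesenchymal-gated cells, against 335 CPM in sham, a ratio of 0.269 (0.256 to 0.282). In myogenic-gated cells it stood at 84.7 CPM in tenotomy, against 457 CPM in sham, a ratio of 0.185 (0.166 to 0.207). Both classes had more UMIs per cell after tenotomy, with medians of 13224 in tenotomy against 8211 in sham mesenchymal-gated cells and of 13620 in tenotomy against 6143 in sham myogenic-gated cells, yet Myc was lower per cell as well. It averaged 1.44 UMIs per cell in tenotomy and 2.70 in sham mesenchymal-gated cells, and 1.37 and 3.09 UMIs per cell in tenotomy and sham myogenic-gated cells.

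In endothelial-gated cells Myc was 4.87-fold higher (4.13 to 5.76), at 79.5 CPM in tenotomy and 16.3 CPM in sham. A Myc UMI was found in 22.3% of tenotomy and 4.16% of sham endothelial-gated cells, although the sham cells were the deeper ones (median 3041.5 UMIs in tenotomy and 3469 UMIs in sham). For scale, neutrophil-gated cells of the tenotomy library carried a Myc UMI in 0.723% of 415 cells at a median of 1589 UMIs. Monocyte/macrophage-gated cells were low in both libraries, at 6.09 CPM in tenotomy and 21.7 CPM in sham, a ratio of 0.280 (0.202 to 0.395). Tenocyte-gated cells stood at 197 CPM in tenotomy and 280 CPM in sham, a ratio of 0.704 (0.621 to 0.796), and the mural interval spanned 1 (ratio 0.859, 0.424 to 1.70).

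Immediate early genes, which respond within minutes to handling, digestion and growth signals alike, were lower after tenotomy in the same cells. Of 12 listed genes (Fos, Egr1, Jun, Btg2 and others), 11 were at least 2-fold lower and 1 (Ier3) higher in mesenchymal-gated cells, with a summed level of 3805 CPM in tenotomy and 13885 CPM in sham. All 12 were at least 2-fold lower in myogenic-gated cells, at 1663 CPM in tenotomy and 10857 CPM in sham. In endothelial-gated cells, where Myc was higher, 9 of 12 were at least 2-fold lower, at 8190 CPM in tenotomy and 20953 CPM in sham. In monocyte/macrophage-gated cells 11 of 12 were lower, at 5417 CPM in tenotomy and 11526 CPM in sham. Of all genes measured, 19.6% in the mesenchymal, 11.8% in the myogenic, 8.39% in the endothelial and 12.2% in the monocyte/macrophage gate were at least 2-fold lower. The list therefore moved with Myc in 3 of these 4 classes and against it in the endothelial gate, and its part in the Myc difference was not tested. Fos, a subunit of the AP-1 factor, had 181 CPM in tenotomy and 1359 CPM in sham mesenchymal-gated cells, the lowest ratio there at 0.133, with Egr1 next (0.139) and Klf4 (0.308) the second highest after Ier3 (2.17). In the myogenic gate the lowest were Btg2 (0.0712) and Fosb (0.0936), and the highest Klf4 (0.342) and Jun (0.335).

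While Myc was lower, most of the other 30 genes were higher in tenotomy mesenchymal-gated cells. Summed over the 30, the level was 3603 CPM in tenotomy and 2636 CPM in sham, a ratio of 1.37 (1.35 to 1.38). All 31 members had at least 25 UMIs in this class, 10 passed 2-fold upwards (32.3%) and 3 downwards (9.68%), while 14.0% of the 13617 genes measured were higher and 19.6% lower. The median log2 ratio of the members was 0.73, beside −0.09 over all genes measured. The 3 lower members were Myc, Nop58 and Nop14. The other 28 all had ratios above 1, the lowest being 1.17 for Ddx21, a nucleolar RNA helicase.

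Among the abundant nucleolar proteins in mesenchymal-gated cells, Npm1 (nucleophosmin, a chaperone of ribosome assembly) had 1174 CPM in tenotomy and 529 CPM in sham, a ratio of 2.22 (2.16 to 2.27). Ncl (nucleolin, an RNA-binding protein of the nucleolus) had 615 CPM in tenotomy and 481 CPM in sham, a ratio of 1.28 (1.24 to 1.31). Only Npm1 of the 7 genes in this role passed 2-fold. These 2 transcripts alone made up 49.6% of the summed level in tenotomy and 38.3% in sham, so the sum follows them closely. Without Npm1, a sum added after these values were seen, the ratio was 1.15 (1.14 to 1.17). The 29 genes left include Nop58, with 196 CPM in tenotomy and 569 CPM in sham. In this class 28 of the 31 members had ratios above 1.

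The core proteins of the box C/D snoRNP went apart. Fbl (fibrillarin, the methyltransferase of the particle) had 116 CPM in tenotomy and 70.0 CPM in sham mesenchymal-gated cells, a ratio of 1.66 (1.55 to 1.78). Nop56 had 114 CPM in tenotomy and 84.5 CPM in sham, a ratio of 1.35 (1.26 to 1.44). Nop58, which pairs with Nop56 in the same particle, had 196 CPM in tenotomy and 569 CPM in sham, a ratio of 0.345 (0.334 to 0.357). Nop58 thus lay on the other side of 1 from both of its partners, with intervals that do not meet.

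Box H/ACA genes were all higher. Nhp2 had the highest ratio of the 31 members in this class, 4.33 (3.95 to 4.75), with 139 CPM in tenotomy and 32.2 CPM in sham, and it was detected in 65.3% of tenotomy and 21% of sham cells. Gar1 lay just inside 2-fold at 1.99, Nop10 at 1.49, and Dkc1 (dyskerin, the pseudouridine synthase) at 1.45. Nhp2 overlaps Rmnd5b on the opposite strand in the GENCODE annotation, and the sources used here do not say whether the counting used strand, so reads of the pair cannot be told apart. This holds for 13 of the 31 members, among them Nop56 with Idh3b, Bop1 with Mroh1 and Scx, Nop14 with Gm15522, and Dkc1 with Mpp1.

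Processing factors and RNA polymerase I held most of the other called genes. Rrp12, a factor of small subunit maturation and export, had 10.8 CPM in tenotomy and 3.11 CPM in sham mesenchymal-gated cells, a ratio of 3.48 (2.57 to 4.81). Bop1, which forms the PeBoW complex of large subunit processing with Pes1 and Wdr12, had 31 CPM in tenotomy and 10.1 CPM in sham, a ratio of 3.08 (2.60 to 3.67). Rrp1b, a large subunit factor, had 25.1 CPM in tenotomy and 8.96 CPM in sham, a ratio of 2.81 (2.34 to 3.39). In all, 5 of 9 large subunit factors and 2 of 4 small subunit factors were at least 2-fold higher. Polr1b, the second-largest subunit of RNA polymerase I, had a ratio of 2.41 (1.79 to 3.31), and Polr1a, the largest, 1.82 (1.54 to 2.17).

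Nop14, a small subunit factor, was the exception among processing genes, with 52.7 CPM in tenotomy and 112 CPM in sham mesenchymal-gated cells, a ratio of 0.470 (0.437 to 0.504). The next lowest members after it were Ddx21, with 130 CPM in tenotomy and 110 CPM in sham, and Rrp9, a protein of the U3 snoRNP, with 19.5 CPM in tenotomy and 15.9 CPM in sham (ratio 1.23, 1.06 to 1.43).

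In myogenic-gated cells the 30 genes summed to 6994 CPM in tenotomy and 5260 CPM in sham, a ratio of 1.33 (1.30 to 1.36), the highest levels of any class in either library. Without Npm1 the other 29 genes summed to 4590.0 CPM in tenotomy and 4225 CPM in sham, a ratio of 1.09 (1.06 to 1.11). That sum still holds Nop58, with 259 CPM in tenotomy and 760 CPM in sham, and 24 of the 31 members had ratios above 1. Of the 31 members, all measured, 13 were at least 2-fold higher (41.9%) and 2 lower, beside 34.0% of 10288 genes higher and 11.8% lower. The share of members called is thus near the share of all genes. The median gene of this class had a log2 ratio of 0.48, and the members' median was 0.83. Taken relative to that median gene, the members' median was 0.34, and 2 members then passed 2-fold upwards and 4 downwards.

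Among the abundant nucleolar proteins of the myogenic gate, Npm1 had 2404 CPM in tenotomy and 1035 CPM in sham, a ratio of 2.32 (2.23 to 2.43). Ncl had 1464 CPM in tenotomy and 1290 CPM in sham, a ratio of 1.14 (1.09 to 1.18), below the median gene of the class. Fbl had 226 CPM in tenotomy and 218 CPM in sham, and Nop56 had 152 CPM in tenotomy and 166 CPM in sham, and both intervals spanned 1. Nop58 had 259 CPM in tenotomy and 760 CPM in sham, a ratio of 0.341 (0.317 to 0.365), close to the value in the mesenchymal gate. Relative to the median gene, all 3 of these box C/D proteins were lower in tenotomy.

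The highest ratios in the myogenic gate were those of an RNA polymerase I subunit, 2 PeBoW proteins and dyskerin. Polr1b had 16.6 CPM in tenotomy and 4.21 CPM in sham, from 91 tenotomy and 10 sham UMIs, a ratio of 3.95 (2.05 to 8.5). Bop1 had 58.1 CPM in tenotomy and 14.7 CPM in sham, a ratio of 3.94 (2.77 to 5.76). Dkc1 had 136 CPM in tenotomy and 50.5 CPM in sham, a ratio of 2.68 (2.21 to 3.28), and Pes1 54.0 CPM in tenotomy and 20.2 CPM in sham, a ratio of 2.67 (1.97 to 3.71). Wdr12, the third protein of the complex, had a ratio of 2.62 (1.99 to 3.51). The lowest after Myc and Nop58 were Nop14, with 71.6 CPM in tenotomy and 131 CPM in sham (ratio 0.547, 0.470 to 0.636), and Ddx21, with 201 CPM in tenotomy and 351 CPM in sham (0.574, 0.524 to 0.628). Ddx21 thus lay below 1 here and above 1 in the mesenchymal gate.

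Endothelial-gated cells combined a higher Myc with higher ribosome biogenesis genes. The 30 genes summed to 3017 CPM in tenotomy and 2055 CPM in sham, a ratio of 1.47 (1.44 to 1.5), or 1.35 (1.32 to 1.38) without Npm1. Of 31 members, 9 were at least 2-fold higher (29.0%) and 0 lower, beside 8.67% of 11842 genes higher and 8.39% lower, and the members' median log2 ratio was 0.80 beside −0.03 for all genes.

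Rrp12 had the highest ratio in the endothelial gate, 7.95 (3.73 to 18.8), but from 34 tenotomy and 9 sham UMIs, at 5.67 CPM in tenotomy and 0.713 CPM in sham. Nhp2 had 115 CPM in tenotomy and 22.3 CPM in sham, a ratio of 5.16 (4.49 to 5.95), and was detected in 24.8% of tenotomy and 7.69% of sham cells. Polr1a had 20.5 CPM in tenotomy and 5.94 CPM in sham, a ratio of 3.45 (2.57 to 4.66). These and Myc were the top 4, and Fbl followed with 105 CPM in tenotomy and 31.3 CPM in sham, a ratio of 3.37 (2.96 to 3.83). The ratio of Fbl was thus higher here than in the mesenchymal gate, where its interval ended at 1.78. The PeBoW genes were close to each other, with ratios of 1.84 for Wdr12, 1.82 for Pes1 and 1.74 for Bop1.

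Npm1 had 855 CPM in tenotomy and 455 CPM in sham endothelial-gated cells, a ratio of 1.88 (1.81 to 1.95), and Ncl 546 CPM in tenotomy and 382 CPM in sham, a ratio of 1.43 (1.36 to 1.49). Nop56 had 95 CPM in tenotomy and 90.5 CPM in sham, with an interval that spanned 1. Nop58 was the lowest member here, with 240 CPM in tenotomy and 345 CPM in sham, a ratio of 0.695 (0.655 to 0.738). Nolc1, a chaperone of snoRNPs, had 82.3 CPM in tenotomy and 111 CPM in sham (0.739, 0.665 to 0.819), and Nop14 67.6 CPM in tenotomy and 73.2 CPM in sham, with an interval that spanned 1. The split between Nop58 and Fbl therefore also held in the class in which Myc was higher.

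Monocyte/macrophage-gated cells did not share the higher levels. The 30 genes summed to 1921 CPM in tenotomy and 2371 CPM in sham, a ratio of 0.810 (0.787 to 0.834). Of 31 members, 0 were at least 2-fold higher and 5 lower (16.1%), beside 8.48% of 11728 genes higher and 12.2% lower, and the median log2 ratio was −0.06 beside −0.03 for all genes. Ratios above 1 were found for 13 of the 31 members, so the lower sum does not stand for every member. The sham side rests on 283 cells, and median depths were 6118 UMIs in tenotomy and 6907 UMIs in sham.

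In that gate Npm1 stood at 640 CPM in tenotomy and 636 CPM in sham, and Fbl at 90.0 CPM in tenotomy and 90.2 CPM in sham, both with intervals that spanned 1. Ncl had 415 CPM in tenotomy and 676 CPM in sham, a ratio of 0.614 (0.582 to 0.649), and Nop56 36.2 CPM in tenotomy and 62.9 CPM in sham, a ratio of 0.576 (0.481 to 0.694). Nop58 had 36.7 CPM in tenotomy and 153 CPM in sham, a ratio of 0.241 (0.213 to 0.273), the lowest value of this gene in any class. Dkc1, 2.68-fold higher in the myogenic gate, had 6.63 CPM in tenotomy and 15.7 CPM in sham here, a ratio of 0.421 (0.292 to 0.626). Nop14 had 33.6 CPM in tenotomy and 78.6 CPM in sham, a ratio of 0.427 (0.363 to 0.506).

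The upper end of the list was Rrp12 (5.45 CPM in tenotomy and 2.78 CPM in sham, from 162 tenotomy and 6 sham UMIs, interval 0.883 to 5.43), Rrp1b (13.2 CPM in tenotomy and 6.94 CPM in sham, ratio 1.90, 1.14 to 3.42), Nhp2 (86.2 CPM in tenotomy and 50.9 CPM in sham, ratio 1.69, 1.40 to 2.07) and Pes1 (25.6 CPM in tenotomy and 21.3 CPM in sham, interval 0.894 to 1.66). The interval of Nhp2 lay above 1 in all 6 classes compared, and that of Npm1 in 5 of them.

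Tenocyte-gated and mural-gated cells were fewer. In tenocyte-gated cells the 30 genes summed to 3400 CPM in tenotomy and 2291 CPM in sham, a ratio of 1.48 (1.43 to 1.54). Of the 29 members with at least 25 UMIs, 10 were at least 2-fold higher and 0 lower, beside 6.99% of 9495 genes higher and 10.1% lower. Nhp2 led with a ratio of 3.33 (2.65 to 4.19), and Nop58 was the lowest at 0.506 (0.456 to 0.560). In mural-gated cells only 15 members reached 25 UMIs, and 1 of them, Nhp2, was at least 2-fold higher (2.62, 1.41 to 5.09) and 0 lower, beside 6.99% of 4090 genes higher and 8.61% lower. Nop58 had a ratio of 1.45 (1.02 to 2.06) there, its only value above 1.

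Levels across classes put myogenic cells apart. After tenotomy the myogenic gate was followed by the mesenchymal (3603 CPM), tenocyte (3400 CPM), T or NK (3255 CPM), erythroid precursor (3054 CPM) and endothelial (3017 CPM) gates, then by B cell (2945 CPM), granulocyte precursor (2835 CPM), mural (2559 CPM), dendritic (1932 CPM) and monocyte/macrophage (1921 CPM) gates. In sham the order after myogenic was mesenchymal (2636 CPM), monocyte/macrophage (2371 CPM), tenocyte (2291 CPM), mural (2110 CPM), endothelial (2055 CPM) and Schwann (2019 CPM). Neighbours in the sham order from monocyte/macrophage (2307 to 2437 CPM) through tenocyte (2241 to 2342 CPM), mural (1969 to 2258 CPM) and endothelial (2030 to 2080 CPM) to Schwann (1856 to 2191 CPM) each had overlapping intervals. In the tenotomy order the same held for all neighbours from tenocyte (3315 to 3487 CPM) through T or NK (3042 to 3480 CPM), erythroid precursor (2927 to 3187 CPM), endothelial (2973 to 3061 CPM), B cell (2806 to 3090 CPM) and granulocyte precursor (2739 to 2933 CPM) to mural (2386 to 2741 CPM), and for dendritic with monocyte/macrophage cells. Tenotomy neutrophil-gated cells had 375 CPM, the lowest of the 19 class and library pairs. Classes with fewer than 50 cells in either library were not compared, among them Schwann, with 31 tenotomy and 60 sham cells.

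**Figure D1:**
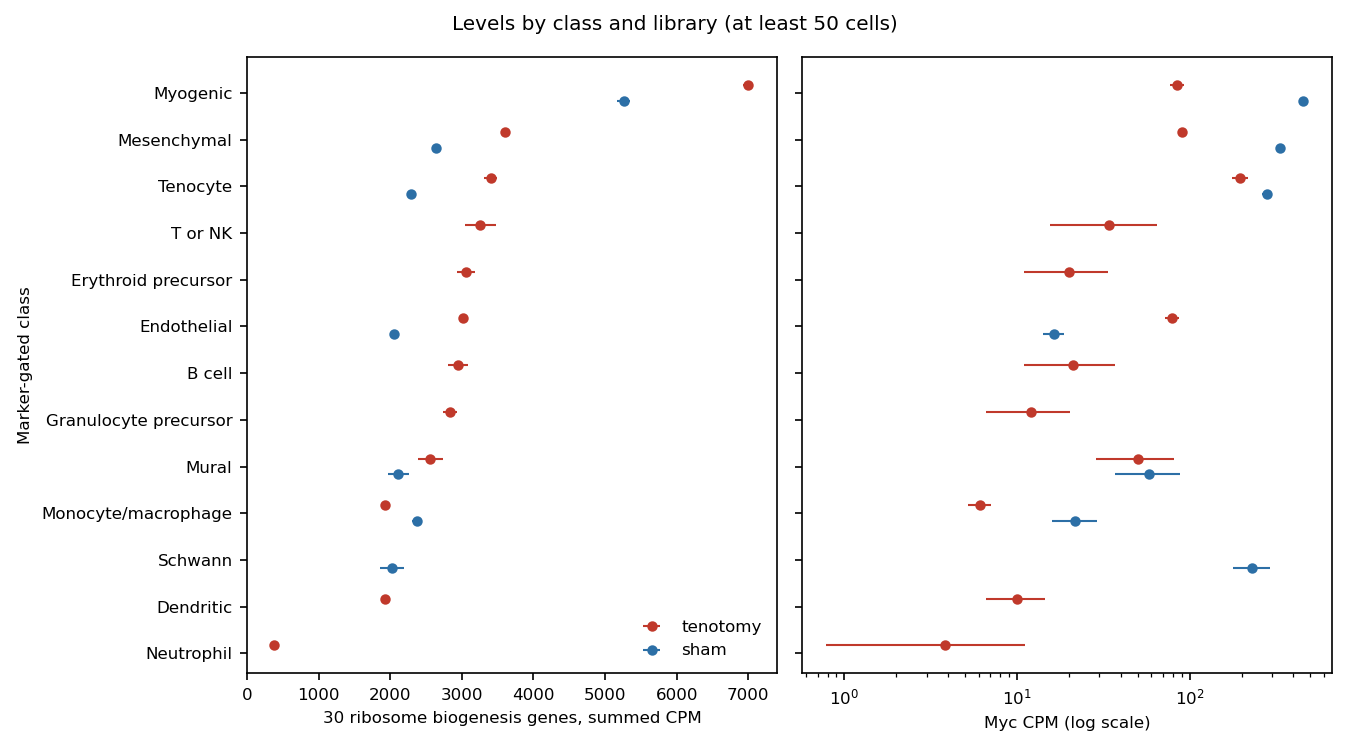
Summed CPM of the 30 ribosome biogenesis genes other than Myc, in each marker-gated class with at least 50 cells, tenotomy above sham, with exact 95% intervals that cover counting error only. Myogenic-gated cells had the highest level in both libraries, 6994 CPM in tenotomy and 5260 CPM in sham, and monocyte/macrophage-gated cells are the one class of the 6 compared that was lower in tenotomy.

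At a common depth of 2000 UMIs per cell, a tenotomy myogenic-gated cell carried a median of 12 UMIs of the 30 genes (10th to 90th percentile 6 to 22) and a sham one 9 UMIs (4 to 18). A mesenchymal-gated cell carried a median of 6 UMIs in tenotomy (2 to 11) and of 5 in sham (2 to 9). Endothelial-gated cells had medians of 5 UMIs in tenotomy and 4 in sham, and monocyte/macrophage-gated cells 3 in tenotomy and 4 in sham. The 10th to 90th percentiles of tenotomy and sham cells overlapped in these 4 classes. Cells below the depth were left out here and wherever cells were thinned. At 2000 UMIs these were 403 tenotomy and 556 sham endothelial-gated cells, the most of the 4 classes.

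Cycling cells were common after tenotomy, and the next question is how far the members follow the cell cycle. Cells with at least 2 UMIs over 12 cycle genes such as Top2a and Tpx2 were called cycling, and cells with 0 were called non-cycling. By this rule 517 of 1621 tenotomy and 15 of 1996 sham mesenchymal-gated cells were cycling, and 163 of 338 tenotomy and 4 of 351 sham myogenic-gated cells. Within the tenotomy library, cycling mesenchymal-gated cells had 3927 CPM of the 30 genes and non-cycling ones 3186 CPM, a ratio of 1.23 (1.21 to 1.25). Cycling myogenic-gated cells had 7695 CPM and non-cycling ones 5973 CPM, a ratio of 1.29 (1.26 to 1.32). Cycling cells were deeper, and with each cell thinned to 2000 UMIs the ratios were 1.15 and 1.10.

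Few members passed 2-fold with the cycle in those classes. Of 31 members, 0 were higher or lower by 2-fold in cycling mesenchymal-gated cells, beside 5.55% of 12160 genes higher and 6.71% lower. In cycling myogenic-gated cells 1 was higher, beside 12.6% of 9340 genes higher and 6.09% lower. That gene was Lyar, a nucleolar protein of growing cells, with 217 CPM in cycling and 94.3 CPM in non-cycling cells, a ratio of 2.30. Npm1 followed with 2773 CPM in cycling and 1772 CPM in non-cycling myogenic-gated cells. As a share of the UMIs Myc ran the other way, with 69.6 CPM in cycling and 131 CPM in non-cycling myogenic-gated cells (ratio 0.530), and 77.2 CPM in cycling and 107 CPM in non-cycling mesenchymal-gated cells (ratio 0.723). Per cell it did not, since cycling cells held more UMIs: Myc averaged 1.97 UMIs per cycling and 1.11 per non-cycling mesenchymal-gated cell, and 1.52 per cycling and 1.30 per non-cycling myogenic-gated cell. Nop58 had 241 CPM in cycling and 324 CPM in non-cycling myogenic-gated cells, and 5.25 UMIs per cycling and 3.21 per non-cycling cell.

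Endothelial-gated cells differed more with the cycle, at 4594 CPM in 77 cycling and 2706 CPM in 1293 non-cycling tenotomy cells, a ratio of 1.70 (1.64 to 1.76). Of 30 measured members 7 were at least 2-fold higher and 0 lower there, beside 8.86% of 9463 genes higher and 8.40% lower. In monocyte/macrophage-gated cells the ratio was 1.25 (1.23 to 1.28), and 0 members passed 2-fold, beside 6.78% of 11222 genes higher and 1.60% lower.

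The comparison of tenotomy with sham was repeated without cycling cells. In non-cycling mesenchymal-gated cells (885 tenotomy and 1880 sham) the 30 genes summed to 3186 CPM in tenotomy and 2637 CPM in sham, a ratio of 1.21 (1.19 to 1.23), and without Npm1 the ratio was 1.07 (1.05 to 1.08). There 8 members were at least 2-fold higher and 3 lower, beside 8.56% of 12617 genes higher and 15.5% lower, and the members' median log2 ratio was 0.62 beside −0.13 for all genes. Nhp2 had 101 CPM in tenotomy and 32.5 CPM in sham, a ratio of 3.12, and Bop1 28.4 CPM in tenotomy and 9.84 CPM in sham, a ratio of 2.88. The lower members were again Myc (0.321), Nop58 (0.418) and Nop14 (0.491). In non-cycling myogenic-gated cells (134 tenotomy and 334 sham) the sum was 5973 CPM in tenotomy and 5238 CPM in sham, a ratio of 1.14 (1.11 to 1.17). Npm1 had 1772 CPM in tenotomy and 1045 CPM in sham. The other 29 genes summed to 4200.3 CPM in tenotomy and 4192 CPM in sham (ratio 1.002, 0.969 to 1.04). These 29 include genes on both sides of 1, among them Nop58 with 324 CPM in tenotomy and 725 CPM in sham. Ratios were above 1 for 22 of the 31 members. Of 31 members 6 were at least 2-fold higher and 2 lower, beside 23.8% of 7904 genes higher and 12.2% lower, and the members' median log2 ratio was 0.62 beside 0.25 for all genes.

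The relation to Myc was described in 2 ways. Across the 19 class and library pairs with at least 50 cells, the Spearman correlation of Myc CPM with the summed CPM of the 30 genes was 0.51, and it was 0.85 over the 12 tenotomy classes and 0.64 over the 7 sham classes. These points share 2 libraries, and each library's classes share its depth and free RNA. The share of cycling cells in a class correlated with the summed CPM at 0.43 over the 19 pairs. That correlation was 0.29 over the tenotomy classes and 0.63 over the sham classes, the last close to the value for Myc. Within a library, classes with more Myc tended to have more of the 30 genes. Between libraries, the myogenic, mesenchymal and tenocyte classes had less Myc and more of them in tenotomy, the endothelial class had more of both, and the monocyte/macrophage class had less of both. In the myogenic class the median of all genes measured was higher in tenotomy as well, at a log2 ratio of 0.48. By the same measure over 19 points, the members most like Myc were Nop58 (0.84) and Nop14 (0.69), and the least like it were Noc2l (−0.15) and Pes1 (−0.06). The 19 points hold the tenotomy and sham values already described, so this order is no separate evidence.

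**Figure D2:**
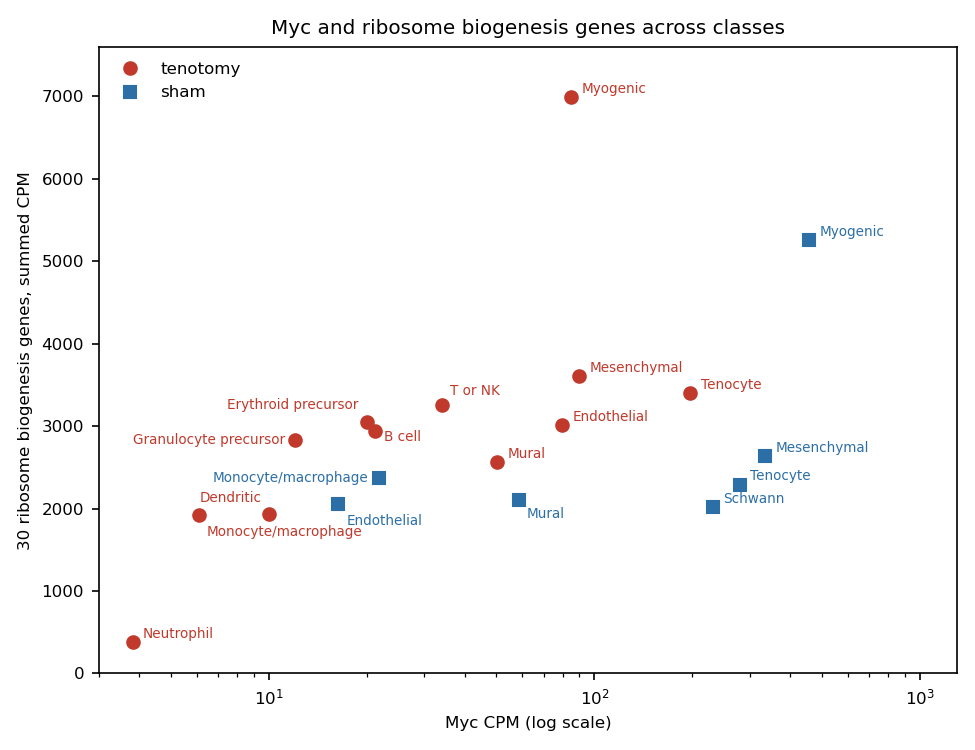
Myc CPM (log axis) against the summed CPM of the 30 ribosome biogenesis genes, 1 point per marker-gated class with at least 50 cells in a library, circles for tenotomy and squares for sham. Myogenic, mesenchymal and tenocyte points lie further left and higher in tenotomy than in sham, and the endothelial point lies further right and higher in tenotomy.

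Within classes, cells with and without a Myc UMI were compared at 2000 UMIs per cell. Thinning lowered the share with a Myc UMI from 60.1% to 16.95% in tenotomy mesenchymal-gated and from 61.5% to 22.05% in tenotomy myogenic-gated cells. In sham it fell from 67.7% to 39.7% in the mesenchymal and from 79.5% to 50.7% in the myogenic gate. Many Myc-negative cells of these gates thus had a Myc UMI before thinning. A ratio near 1 therefore does not show that the genes are unrelated to Myc. In tenotomy mesenchymal-gated cells the 30 genes summed to 3393 CPM in 267 Myc-positive and 3240 CPM in 1308 Myc-negative cells, a ratio of 1.05 (0.995 to 1.10). In sham mesenchymal-gated cells the sums were 2768 CPM in 738 Myc-positive and 2456 CPM in 1123 Myc-negative cells, a ratio of 1.13 (1.08 to 1.17). In myogenic-gated cells the ratio was 1.07 (1.0 to 1.15) in tenotomy and 0.926 (0.867 to 0.990) in sham. The ratios for endothelial-gated cells were 1.06 (0.989 to 1.14) in tenotomy and 1.10 (0.978 to 1.24) in sham. In monocyte/macrophage-gated cells it was 1.01 (0.877 to 1.16) in tenotomy and 0.726 (0.500 to 1.02) in sham, the last from 10 Myc-positive cells. At 4000 UMIs per cell, with cells below that depth left out, the sham mesenchymal ratio kept its direction at 1.18. The tenotomy mesenchymal (0.969), myogenic (0.968) and endothelial (0.973) ratios and the sham myogenic (1.07) and monocyte/macrophage (1.16) ratios lay on the other side of 1 at that depth.

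Among single members in the same split, Nop58 had 302 CPM in Myc-positive and 190 CPM in Myc-negative tenotomy mesenchymal-gated cells (ratio 1.59, 1.32 to 1.90), and 644 CPM in Myc-positive and 511 CPM in Myc-negative sham ones (1.26, 1.16 to 1.38). In myogenic-gated cells its ratio was 1.32 (0.971 to 1.76) in tenotomy and 1.27 (1.06 to 1.52) in sham, and both endothelial intervals spanned 1. Other members had higher ratios in single gates. Rrs1, a large subunit factor, had a ratio of 1.81 (1.25 to 2.56) in tenotomy mesenchymal-gated cells, and Rrp9 of 3.24 (1.25 to 9.86) in sham myogenic-gated cells, the last from 20 Myc-positive and 6 Myc-negative UMIs. Ddx21 had a ratio of 1.48 (1.21 to 1.81) in sham mesenchymal-gated and of 1.77 (1.22 to 2.53) in tenotomy myogenic-gated cells, but of 0.745 (0.572 to 0.967) in sham myogenic-gated cells. Nolc1 had a ratio of 1.44 (1.16 to 1.79) in sham mesenchymal-gated cells. Ncl had intervals above 1 in the tenotomy mesenchymal (1.14, 1.01 to 1.28), myogenic (1.25, 1.08 to 1.45) and endothelial (1.23, 1.05 to 1.44) gates. The same held in the sham mesenchymal gate (1.11, 1.01 to 1.22). Its intervals lay below 1 in the sham myogenic (0.822, 0.719 to 0.940) and monocyte/macrophage (0.435, 0.158 to 0.956) gates. Nop10 had a ratio of 0.684 (0.527 to 0.883) in sham mesenchymal-gated cells. These examples were chosen after their values were seen. Immediate early genes, summed, had ratios of 1.42 and 1.57 between Myc-positive and Myc-negative cells in the tenotomy mesenchymal and myogenic gates, and of 0.943 and 0.912 in the sham ones. Their part in these differences was not tested.

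**Figure D3:**
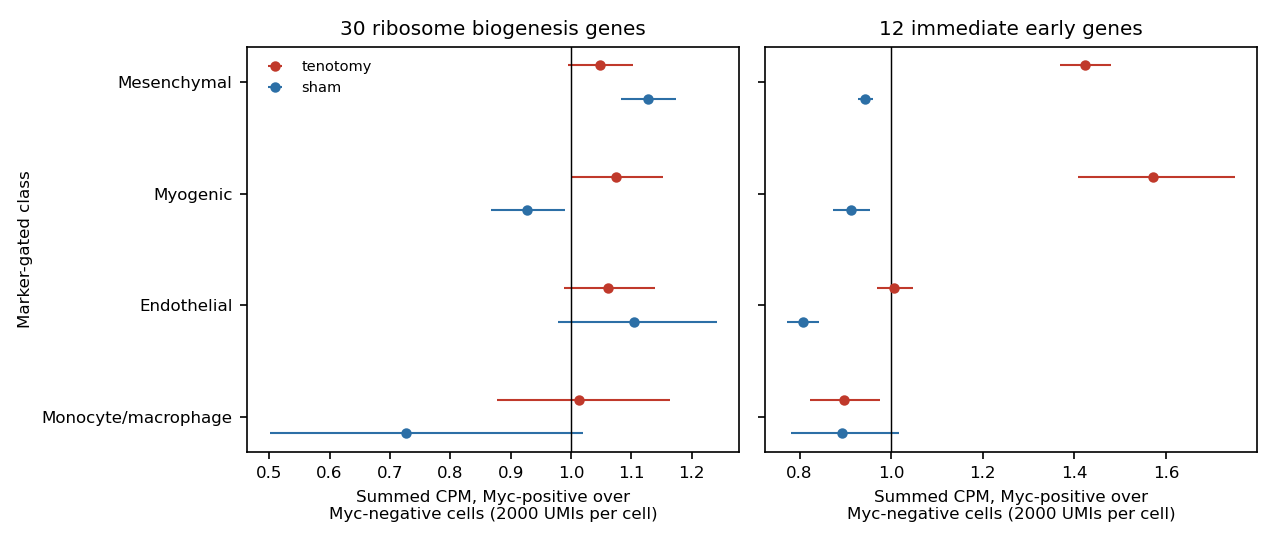
Ratio of the summed CPM of the 30 ribosome biogenesis genes in Myc-positive over Myc-negative cells, each cell thinned to 2000 UMIs, by class and library with exact 95% intervals that cover counting error only. Most ratios lie between 0.926 and 1.13, and the wide sham monocyte/macrophage interval rests on 10 Myc-positive cells.

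Lists of related genes were read beside the members. Of 56 other ribosome biogenesis genes, all measured, 10 were at least 2-fold higher in tenotomy mesenchymal-gated cells (median log2 ratio 0.57), 8 in myogenic-gated cells (0.51), 11 in endothelial-gated cells (0.49) and 0 in monocyte/macrophage-gated cells (0.08), and 0 were lower in any of the 4. Of all genes measured in these classes 14.0%, 34.0%, 8.67% and 8.48% were higher, so the count in the myogenic gate lies below that of genes at large, and the median there is close to the 0.48 of all genes. The highest in the mesenchymal gate were Mrto4, a factor of large subunit assembly, with 57.9 CPM in tenotomy and 20.8 CPM in sham, and Bysl, a small subunit factor, with 21 CPM in tenotomy and 8.65 CPM in sham. The lowest were Senp3 (ratio 0.672) and Riok2 (0.714). In the myogenic gate Nop9 (3.29) and Rpf2 (2.61) were the highest, and Gnl3 (nucleostemin, 0.542) and Riok2 (0.780) the lowest.

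Of 19 other subunits and factors of RNA polymerase I, 2 were at least 2-fold higher and 0 lower in mesenchymal-gated cells, beside 14.0% of all genes higher, led by Polr1e (3.24) and Cd3eap (2.27), with Taf1b (0.681) and Taf1d (0.924) at the lower end. In myogenic-gated cells 8 were higher and 0 lower, beside 34.0% of all genes higher, led by Polr2e (4.60) and Polr2f (3.46), which other RNA polymerases share, with Taf1a (0.699) and Twistnb (0.835) at the lower end. Median log2 ratios were 0.53 and 0.77.

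Other genes known as Myc targets differed by class. Of 16 in mesenchymal-gated cells 8 passed 2-fold upwards and 0 downwards, beside 14.0% of all genes upwards, and their median log2 ratio was 0.96. In endothelial-gated cells 5 of 16 passed upwards and 0 downwards (median 0.43), beside 8.67% of all genes upwards. In monocyte/macrophage-gated cells 2 passed upwards and 2 downwards (median −0.07), beside 8.48% of all genes upwards and 12.2% downwards. Nme1, a nucleoside diphosphate kinase, led in the mesenchymal gate with 443 CPM in tenotomy and 84.5 CPM in sham. Srm, the spermidine synthase, had 184 CPM in tenotomy and 37.1 CPM in sham there. The lowest in that gate were the lactate transporter Slc16a1 (0.630) and the cyclin Ccnd2 (0.696). In myogenic-gated cells 7 of 15 were higher and 1 lower, beside 34.0% of all genes higher, led by Nme1 (5.19) and Cad (5.12), an enzyme of pyrimidine synthesis. Odc1, the ornithine decarboxylase, was the lower one, with 384 CPM in tenotomy and 914 CPM in sham, and Slc16a1 had a ratio of 0.543.

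In the Myc network, Mxd3, a partner of Max, had 15.9 CPM in tenotomy and 0.311 CPM in sham mesenchymal-gated cells, from 413 tenotomy and 5 sham UMIs. In myogenic-gated cells it had 119 UMIs in tenotomy and 0 in sham, at least 17.2-fold higher with 3 counts set for the sham library, while the exact 95% interval begins at 13.8. Mycl had 87 UMIs in tenotomy and 0 in sham there, at least 12.6-fold higher on the same footing, with an interval from 10.0. Mycn was low, at 0.733 CPM in tenotomy and 2.67 CPM in sham mesenchymal-gated cells, Mlxip had ratios of 0.482 and 0.346 in the mesenchymal and myogenic gates, Mnt had 1.52 in the first and Mxi1 0.620 in the second. Of the 10 measured in each, 1 was at least 2-fold higher and 2 lower in the mesenchymal gate, and 2 higher and 1 lower in the myogenic gate. The shares of all genes were 14.0% higher and 19.6% lower in the mesenchymal gate, and 34.0% higher and 11.8% lower in the myogenic gate.

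Host genes of small nucleolar RNAs, the guides of the snoRNPs, were mostly within 2-fold. Of 12, 0 were higher and 1 lower in mesenchymal-gated cells, beside 14.0% of all genes higher and 19.6% lower. In myogenic-gated cells 1 was higher and 0 lower, beside 34.0% of all genes higher and 11.8% lower. Snhg8 had the lowest ratio in both, 0.477 in the mesenchymal and 0.509 in the myogenic gate, and Snhg3 the highest, 1.51 and 2.32. Between them lay Snhg5 (0.655) and Snhg15 (1.29) in the mesenchymal gate, and Epb41l4aos (0.555) and Snhg9 (1.73) in the myogenic gate. Among the members themselves, 5 hold annotated small nucleolar RNA genes within their bounds in GENCODE: Nop56 holds 5, Nop58 4, Ncl 3, Wdr43 3 and Dkc1 1. Hosting did not sort them by direction, since Nop58 had a ratio of 0.345 and Wdr43 of 1.89 in mesenchymal-gated cells. The members lie on 15 chromosomes, and Nop58, Ncl, Wdr75, Wdr12 and Rrs1 share chromosome 1 with different ratios.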

How the data were processed

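The values are raw counts of UMIs per gene and cell barcode, 1 table per library, as the authors deposited them, with no normalization. Cell Ranger 4.0.0 and the genome build mm10 are named in the submitters' processing notes; the annotation and the use of strand are not stated there or in the labels. Barcodes under 300 genes or over 10% mitochondrial UMIs were removed (scanpy 1.11.5); none had under 500 UMIs. Scrublet's automatic threshold marked 320 tenotomy cells and 1 sham cell, so the tenotomy threshold of 0.212 was used for both and removed 320 tenotomy and 190 sham cells.

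A cell entered a class with at least 3 of its 10 markers at 1 UMI or more unless another class had more than 50% as many of its own. Tenocyte markers took precedence over mesenchymal, dendritic over monocyte/macrophage, and granulocyte precursor over neutrophil markers. Of the 13 classes, 6 were compared. In the tenotomy and sham libraries 802 and 734 kept cells were set aside as ambiguous and 537 and 200 passed no gate. Cells at exactly 3 markers numbered 18 and 24 in the mesenchymal, 25 and 31 in the myogenic, 29 and 26 in the endothelial and 151 and 6 in the monocyte/macrophage gate. UMIs were summed per class and library and given as CPM of that sum. A gene was measured with at least 25 UMIs over both groups. Ratios have exact conditional binomial 95% intervals, and shares and sums exact ones. PCR and droplet steps are outside these intervals, which cover counting error only.

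The members, lists, gates and comparisons were chosen with earlier results of these data known. All members could be named. Full values are given for Myc, Npm1, Ncl, Fbl, Nop56 and Nop58 and for the 4 highest and 4 lowest ratios in each of the 4 main classes, and of each other list the 2 highest and 2 lowest in the mesenchymal and myogenic classes. The cycle genes served as a gate, so their own ratios are no result: all 12 were at least 2-fold higher in tenotomy in the mesenchymal, myogenic and endothelial gates. The listed symbol Snhg4 was not matched. Ratio and interval code was tested on simulated data with known changes.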

Additional observations from a re-analysis of the deposited data

Results flagged for a closer look

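Myc differed in direction between classes. It was 4.87-fold higher in tenotomy than in sham endothelial-gated cells, while its ratio was 0.269 in mesenchymal-gated, 0.185 in myogenic-gated and 0.280 in monocyte/macrophage-gated cells. Each interval lay on 1 side of 1, but with 1 library per group the difference between classes was not tested.

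Dkc1, which encodes the pseudouridine synthase of box H/ACA particles, had a ratio of 2.68 in myogenic-gated and of 0.421 in monocyte/macrophage-gated cells, and this difference was not tested either.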

How the results depend on the processing

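No paired analysis was possible because each group is 1 library of pooled muscles. The 12 alternatives gave 223 values of the main results, of which 0 changed sign with a call, 179 moved little and 44 moved by more than counting error or changed a count by over 1.5 times. With cells thinned to 2000 UMIs, the log2 ratio of Myc was −1.75 in mesenchymal-gated, −1.64 in myogenic-gated and 2.67 in endothelial-gated cells, beside −1.90, −2.43 and 2.28. Thinning also gave 7 higher members in the myogenic and 3 in the monocyte/macrophage gate, and cycling ratios of 1.15 (mesenchymal) and 1.10 (myogenic). As a mean over cells, the log2 ratio of Myc was −1.59, −1.89 and 2.54, the members' median was 0.60 in mesenchymal-gated and 0.46 in endothelial-gated cells, and 1 member was higher in the monocyte/macrophage gate. Relative to the median gene, the log2 ratio of Myc was −1.81 in mesenchymal-gated and −2.91 in myogenic-gated cells, the myogenic median was 0.34 with 2 members higher and 4 lower, and 1 member was higher in the monocyte/macrophage gate, as with 2 or 4 markers per gate. Without doublet removal, Myc was at 2.02 in endothelial-gated cells, and the Myc-positive over Myc-negative ratio was 1.04 in sham myogenic-gated and 1.16 in sham monocyte/macrophage-gated cells. At 4000 UMIs that ratio was 0.969, 0.968 and 0.973 in tenotomy mesenchymal, myogenic and endothelial gates, and 1.18, 1.07 and 1.16 in sham mesenchymal, myogenic and monocyte/macrophage gates. At most 5% mitochondrial UMIs gave 1.57 for the last of these and a correlation with Myc of 0.955 over tenotomy classes. Without Npm1 and Ncl, cycling ratios were 1.12 in mesenchymal-gated and 1.12 in myogenic-gated cells, the sham myogenic Myc-positive ratio was 0.996, and correlations were 0.66 over all and 0.89 over sham points. Without Npm1 alone, an alternative chosen after seeing the data, the summed tenotomy over sham ratio was 1.15 in mesenchymal-gated, 1.09 in myogenic-gated, 1.35 in endothelial-gated and 0.738 in monocyte/macrophage-gated cells, and 1.07 and 1.002 in non-cycling mesenchymal-gated and myogenic-gated cells. These sums without Npm1 still hold Nop58, which was lower in tenotomy in each of these classes. A stricter cycle rule (at least 4 UMIs) gave 1.38 in myogenic-gated cells. The cause of these shifts was not tested. Several of the small Myc-positive ratios changed sides of 1 at 4000 UMIs or without doublet removal. The sham mesenchymal one stayed above 1 in all 6 alternatives run for it. Thinning to 4000 UMIs also left out the cells below that depth, so depth and the set of cells changed together. Of 192 values of single genes, 39 moved, 11 changed sign while within 2-fold, and 0 reversed a call. Leaving out replicates was not possible with 1 library per group. Depth limits the rarest members: Rrp12 and Polr1b rest on 6 to 10 sham UMIs in some classes.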
